A study of Mus musculus with 30 samples.

Results

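Neurosphere cultures that had received a second retrovirus, encoding green fluorescent protein (GFP), were compared with the untransduced cultures of the same 5 lines, one GFP array and one untransduced array per line. These 10 arrays are among 30 mouse arrays of the series, 22 of them from neurospheres. They were chosen by their titles alone, with no measured value. The GFP cultures were Olig1/2+/- in lines 11 and 15 and Olig1/2-/- in lines 12, 13 and 14, called heterozygous and null below, and so were the untransduced cultures of the same numbers. Every culture on both sides came from ganglionic eminences of E14.5 embryos of mixed Swiss and C57BL/6J background, lacked Ink4a/Arf, and had been given a retrovirus for EGFRvIII, a constitutively active mutant of the epidermal growth factor receptor, at passage 1 with puromycin selection at 2 µg/ml. Serum-free medium held EGF and bFGF at 20 ng/ml each. Untransduced therefore means without the second virus, which the GFP cultures received at passage 3 together with blasticidin at 2 µg/ml. Cells were harvested between passages 4 and 15, and the labels give no passage for a single array. The second virus, its selection and any added time in culture cannot be told apart, and neither the promoter that drives GFP nor the share of cells expressing it was given in the sources used here. Nothing in the labels says whether a line came from 1 embryo, so p-values measure the spread between these lines.

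A GFP virus serves as the control for a virus with a gene of interest, and the untransduced culture shows what that control itself changes. Neurospheres are floating clusters of neural stem and progenitor cells kept dividing by EGF and FGF. Their expression moves with density, sphere size, oxygen supply and medium age, and cytokines of the interleukin-6 family act on them through the shared receptor gp130 and the transcription factor STAT3, which induces the feedback inhibitor Socs3 and the astrocyte gene Gfap.

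The values are array signals on a linear scale, and differences are GFP minus untransduced within a line, on the scale of log2 of the signal plus 16. Of 15 neural progenitor markers with a probe set, 13 reached the array median on each of the 10 arrays. Their summed signal ran from 78888 to 100352 on GFP arrays and from 86735 to 102380 on untransduced arrays. Astrocyte markers reached it about as often, 13 of 16, and summed to 53916 to 73589 on GFP arrays and 61305 to 80607 on untransduced arrays. For oligodendrocyte precursor markers it was 5 of 12, with sums of 49213 to 79027 and 47062 to 71793. These lists therefore do not single out 1 cell type. Of 12 microglia and macrophage markers 7 lay below the median on each of the 10 arrays, Aif1, Cx3cr1 and Ptprc among them, and the list summed to 1420 to 1682 on GFP arrays and 1314 to 1913 on untransduced arrays. Olig1 signal ran from 5124 to 11291 on null GFP arrays, against 24648 and 25682 on heterozygous GFP arrays, and from 7064 to 7520 on null untransduced arrays, against 20360 and 22618 on heterozygous untransduced arrays. Signal was thus lower but not lost on the null arrays, and where the probe set lies relative to the deletion was not checked. Xist, the RNA of the inactive X chromosome, was high on both arrays of line 15 (29882 GFP, 32030 untransduced) and between 161 and 416 on the other 8. Of the Y-linked genes, Kdm5d was at 513.3 on the GFP array of line 11 and 143.6 on its untransduced array, and Eif2s3y at 425.7 and 97.7. The GFP transcript was not read.

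Signs of RNA quality moved with the virus. The actin 3'/5' log2 ratio was 0.21, 0.23, 0.28, 0.61 and 0.33 on the GFP arrays of lines 11, 15, 12, 13 and 14, against 0.12, 0.18, 0.25, 0.22 and 0.19 on the untransduced arrays, higher with GFP in 5 of 5 lines. The Gapdh ratio and the absorbance ratio were each higher with GFP in 4 of 5 lines, and the median signal was lower in 4 of 5. One array stood farthest apart. The GFP array of line 13 had an RNA absorbance ratio (A260/A280) of 2.83, against 1.76 to 1.88 on the other GFP arrays. For Gapdh, probes at the 3' end exceeded those at the 5' end by 0.43 on the log2 scale, as happens when RNA is degraded, while this value was -0.24 to -0.04 on the other GFP arrays and -0.23 to -0.13 on the untransduced arrays. Its median signal was 128.9, the lowest of the 10, the other 9 lying between 149.6 and 182.3. The count of calls is therefore also given without line 13. For lists described below with medians away from zero, the range with each line left out, or the value without single lines, is added. Adding the Gapdh value of each array to the model left 0 calls and 541 genes at an unadjusted p under 0.05. With that value in the model the list medians were 0.32 for DNA replication, -0.64 for gp130 and STAT3, -0.68 for immediate early, -0.42 for hypoxia, -0.17 for cytokine and -0.17 for interferon genes, against 0.36, -0.56, -0.51, -0.44, -0.32 and -0.30 without it.

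Of 11071 genes tested, 2 were called at an adjusted p under 0.05 (0.0181%), both lower with the GFP virus, and 0 were higher. The 2 genes encode a neurotransmitter receptor subunit and a secreted protease. At an unadjusted p under 0.05 limma had 753 genes higher (6.8%) and 541 lower (4.89%), and the median difference of all genes was 0.01. All 5 lines moved the same way for 1329 genes, 796 of them higher in the GFP cultures (7.19%) and 533 lower (4.81%). The 5 GFP arrays lay above all 5 untransduced arrays for 235 genes (2.12%) and below them for 90 (0.813%). Without line 13 limma called 0 genes (0%) and had 805 at an unadjusted p under 0.05.

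Gabra2, on chromosome 5, encodes a subunit of the GABA-A receptor, the chloride channel opened by the transmitter GABA. Its signal was 700.2 and 597.4 on the GFP arrays of heterozygous lines 11 and 15 and 427.9, 314.4 and 395.7 on those of null lines 12, 13 and 14, against 1834.5, 1438.4, 910.5, 1093.5 and 1057.9 on the untransduced arrays in the same order of lines. No GFP array reached the lowest untransduced array, and in both groups the heterozygous lines had the higher values. The mean was 487 ± 158 in GFP cultures and 1267 ± 372 in untransduced cultures (SD, n = 5 each). Gabra2 fell by 1.36 ± 0.13 (SE, limma adjusted p 0.0209; 95% interval -1.65 to -1.07), which is a GFP to untransduced ratio of 0.389. Of its other probe sets, the 2 brightest were lower by 0.53 and 0.54, each in 4 of 5 lines, so the size of the difference depends on the probe set. It lost its call without line 11, 13, 14 or 15 (-1.39 to -1.27, adjusted p 0.0605 to 0.191) and kept it without line 12. Fewer cells of a type and less RNA per cell cannot be told apart in such bulk samples.

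Adamts1, on chromosome 16, encodes a secreted metalloproteinase that cleaves proteoglycans of the extracellular matrix. Its signal was 624.5 and 507.6 on heterozygous GFP arrays 11 and 15 and 452.1, 1060.9 and 526.5 on null GFP arrays 12, 13 and 14. The untransduced arrays of these lines had 1631.8, 1229.6, 1629.1, 2324.6 and 1065.3. Line 13 was highest in both groups, and its GFP value came within a few units of the lowest untransduced value without reaching it. Adamts1 fell by 1.31 ± 0.14 (SE, limma adjusted p 0.0255) and was read from 1 probe set. Its call also ended without line 11, 13, 14 or 15 (-1.39 to -1.30, adjusted p 0.0605 to 0.199), and without the block for line (-1.31, adjusted p 0.11). In that unblocked fit the 2 calls were Gabra2 and Cebpd.

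**Figure D1:**
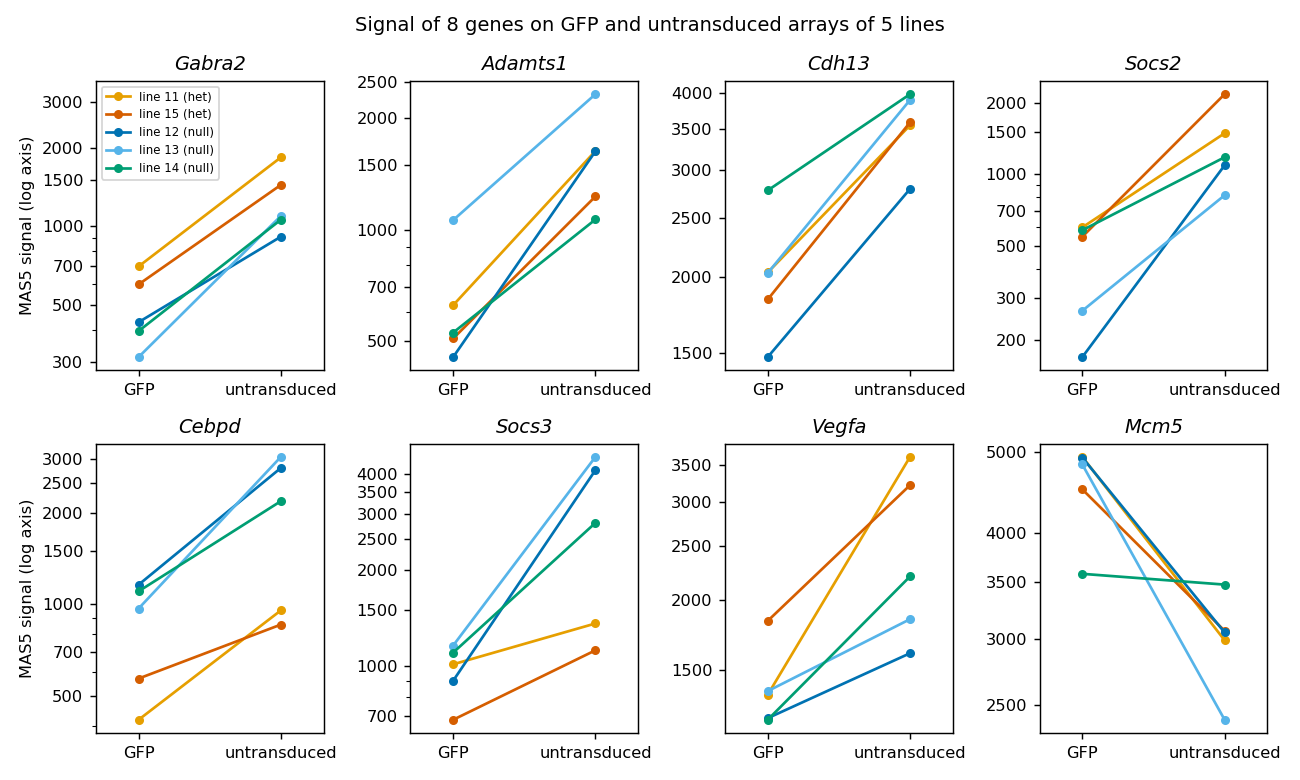
Signal of 8 genes on the GFP array (left) and the untransduced array (right) of each line, on a log axis; each line of the plot joins the 2 arrays of one culture line, 2 heterozygous (het) and 3 null. For Gabra2, Adamts1, Cdh13 and Socs2 all 5 GFP arrays lie below all 5 untransduced arrays, whereas Mcm5 is higher on all 5 GFP arrays, with line 14 nearly level.

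The other 10 named lower genes were lower in the GFP cultures of all 5 lines but were not called. Cdh13, which encodes a cadherin anchored in the membrane by a lipid, had 2034.6, 1837.9, 1478.6, 2030.8 and 2773.6 on the GFP arrays of lines 11, 15, 12, 13 and 14. On the untransduced arrays it had 3545.5, 3585.9, 2789.0, 3902.0 and 3988.1. The groups did not overlap, and the difference was -0.82 ± 0.10 (SE, adjusted p 0.0592), with 2 other probe sets in range at -0.81 and -1.30 and lower in all 5 lines. Tm4sf1, a membrane protein gene of the L6 family, had the largest difference of the named genes, -1.97 ± 0.33 (SE, adjusted p 0.298). Its GFP signals were 294.2, 341.6, 197.3, 330.2 and 378.4, against 1771.0, 737.4, 2455.8, 1113.5 and 780.0 untransduced, with no overlap and with lines 11 and 12 farthest apart. Nudt4, an enzyme of inositol pyrophosphate turnover, averaged 5077 ± 1260 in GFP cultures and 7760 ± 848 in untransduced cultures (SD, n = 5 each), a difference of -0.64 (adjusted p 0.316). Tnfrsf21, a death receptor of the TNF receptor family, differed by -0.52 and Ndrg4 by -0.79 (adjusted p 0.298 and 0.316).

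**Figure D2:**
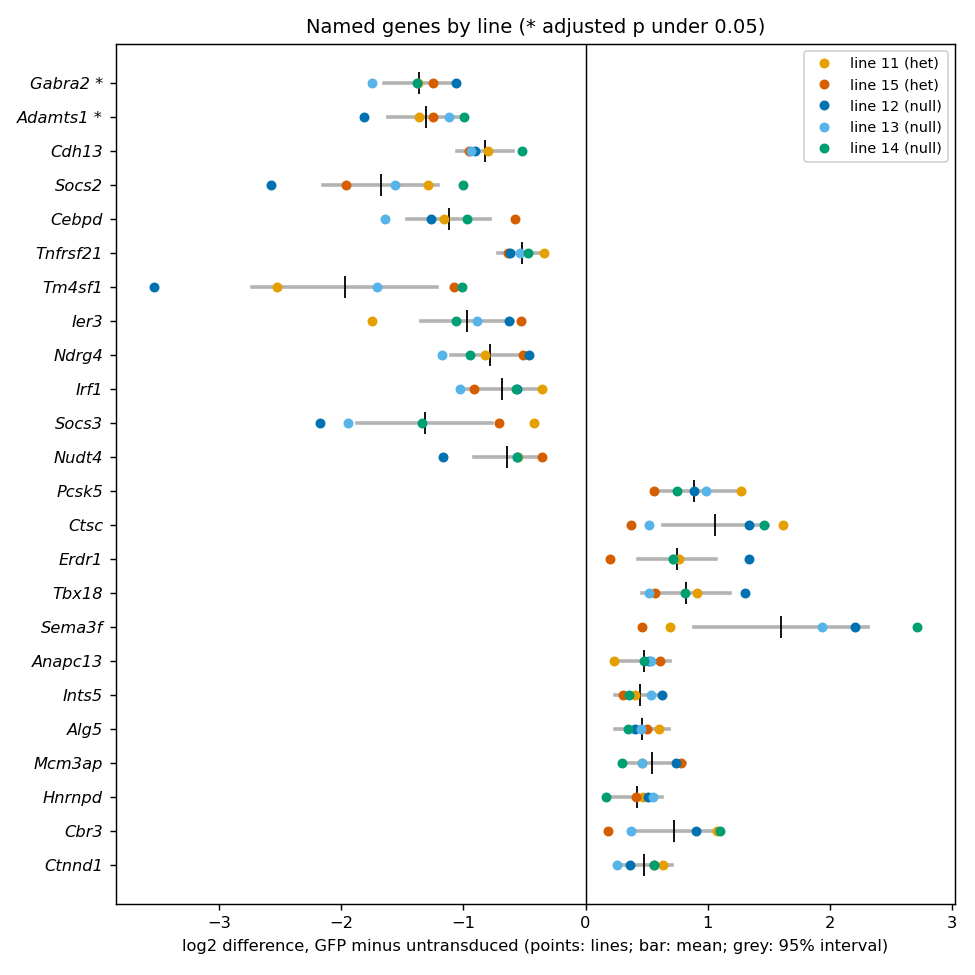
Log2 difference of the 24 named genes, GFP minus untransduced; points are the 5 lines, black bars the mean and grey bars its 95% interval from the paired fit. The 12 lower genes all have 5 points left of zero and the 12 higher genes 5 points right of it, as the rule for naming required, and stars mark the 2 called genes.

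Genes listed under gp130 and STAT3, the Socs feedback inhibitors among them, made up the list farthest below zero among those with 5 or more genes tested. Of 11 tested, 0 were called, 6 were lower in all 5 lines (54.5%, against 4.81% of all genes) and 0 were higher in all 5, and the median difference was -0.56 (-0.76 to -0.46 with each line left out in turn, -0.60 without line 13). In a fit with all 12 untransduced arrays and genotype in the model it was -0.19. In that fit, here and below, wild-type arrays have no GFP array of their genotype and add only to the residual spread. All lists and their members were chosen with earlier results of these data known. The shares of lists, here and below, therefore describe these genes and test nothing. Socs2, an inhibitor of cytokine and growth hormone signalling, had 597.5, 545.8, 169.8, 266.1 and 581.3 on the GFP arrays of lines 11, 15, 12, 13 and 14, against 1488.7, 2175.0, 1090.7, 815.8 and 1179.6 on the untransduced arrays. Every GFP value lay below every untransduced value, and the largest gaps were those of lines 12 and 15. The difference was -1.68 ± 0.21 (SE, adjusted p 0.0592), and the other probe sets of Socs2 ran from -2.34 to -0.21.

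Cebpd, a transcription factor gene of the acute phase response, had 417.9, 570.6, 1159.6, 968.7 and 1103.4 on GFP arrays and 955.2, 858.0, 2803.3, 3048.0 and 2181.1 on untransduced arrays, in the same order of lines. Both groups were higher in the null lines, and the 3 null GFP arrays lay above both heterozygous untransduced arrays, so the groups as a whole overlapped although each line was lower with GFP. A dimmer probe set of Cebpd gave -0.70. The difference was -1.12 ± 0.15 (SE, adjusted p 0.0815). Socs3, which blocks signalling from gp130, had 1013.2, 679.1, 900.1, 1160.2 and 1102.4 on GFP arrays and 1360.3, 1121.0, 4112.3, 4524.3 and 2811.1 on untransduced arrays. The GFP arrays were alike, and the spread lay in the untransduced arrays, where the 3 null lines were high (-1.32 ± 0.24 SE, adjusted p 0.316). Junb, an AP-1 subunit gene that is also in the immediate early list, had 1011.4, 739.0, 509.2, 1116.7 and 1073.9 on GFP arrays and 1769.3, 1259.9, 3841.7, 3468.9 and 1843.6 on untransduced arrays. The groups did not overlap, and lines 12 and 13 had the widest gaps (-1.36 ± 0.29 SE, adjusted p 0.316).

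Pim1, a kinase gene that STAT3 and STAT5 induce, went the other way by 1.17 (adjusted p 0.39) and is named because it stands against the list, after its value was seen. It was at 38.8, 31.2 and 25.3 on the untransduced arrays of lines 11, 15 and 12, below their medians, and at 219.2, 145.6 and 177.5 on the GFP arrays. Its value on the GFP array of line 15 was also below that array's median of 171.1. Lines 13 and 14 differed little. A second probe set of Pim1, below the median on all 10 arrays, differed by 0.03, with 3 lines higher and 2 lower. The rise thus rests on 1 probe set with dim signals. The astrocyte gene Gfap had 205.2, 293.1, 256.8, 434.3 and 652.4 on GFP arrays, against 251.6, 254.3, 4231.6, 2201.4 and 1316.5 on untransduced arrays, so that the wide gaps were those of the null lines, line 11 was slightly lower and line 15 slightly higher with GFP (-1.47 ± 0.51 SE, adjusted p 0.37). Among the other astrocyte markers Gja1, the gap junction gene, was 1.04 higher and the glutamate transporter Slc1a2 0.72 lower, and the list of 15 had a median of -0.10. Oligodendrocyte precursor genes had a median of 0.21, 9 of 10 being higher on average (90%, against 52.6% of all genes), but of 0.09 without line 12. Extracellular matrix genes had a median of -0.22 (-0.26 to -0.16 with each line left out in turn), with 16 of 20 lower on average (80%, against 47.4% of all genes), and 0 were called in either list.

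STAT dimers bind the palindrome TTCNNNGAA. It was searched in the RefSeq promoters of 35 genes, the 12 named lower genes, Zfp36 and the members of the gp130 and immediate early lists, of which 29 had a promoter of 300 bases, from 250 before to 50 after the start. These genes have 38 promoters in the table, of which 4 had a match (10.5%), a share near that of all promoters, 2726 of 32851 (8.3%). The 4 windows are shown because 3 of these genes, Socs3, Irf1 and Zfp36, were lower in all 5 GFP cultures and the fourth is Gfap; each reads 5′ to 3′ on the gene's strand in GRCm38.p6, with the match in capitals. The palindrome reads the same on both strands, and a match is a description of these letters, not a bound site.
Socs3 promoter, chr11:117969317-117969616, minus strand: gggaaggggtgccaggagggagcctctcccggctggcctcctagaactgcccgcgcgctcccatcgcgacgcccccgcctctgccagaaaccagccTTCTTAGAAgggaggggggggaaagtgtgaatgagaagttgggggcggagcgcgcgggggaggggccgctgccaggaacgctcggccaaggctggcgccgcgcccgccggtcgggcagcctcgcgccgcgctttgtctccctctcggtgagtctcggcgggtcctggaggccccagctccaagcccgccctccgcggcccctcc
Irf1 promoter, chr11:53769764-53770063, plus strand: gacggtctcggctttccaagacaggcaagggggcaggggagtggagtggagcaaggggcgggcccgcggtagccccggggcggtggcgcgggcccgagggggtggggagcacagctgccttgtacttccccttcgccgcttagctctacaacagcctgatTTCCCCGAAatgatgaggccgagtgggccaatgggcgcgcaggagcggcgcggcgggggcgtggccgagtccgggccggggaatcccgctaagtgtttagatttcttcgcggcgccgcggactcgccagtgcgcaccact
Gfap promoter, chr11:102897151-102897450, minus strand: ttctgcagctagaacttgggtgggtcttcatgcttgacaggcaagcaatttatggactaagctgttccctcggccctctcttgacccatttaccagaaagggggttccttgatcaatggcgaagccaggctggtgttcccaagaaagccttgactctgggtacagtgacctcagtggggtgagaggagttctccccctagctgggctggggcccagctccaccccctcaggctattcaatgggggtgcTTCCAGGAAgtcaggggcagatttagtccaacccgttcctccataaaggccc
Zfp36 promoter, chr7:28379179-28379478, minus strand: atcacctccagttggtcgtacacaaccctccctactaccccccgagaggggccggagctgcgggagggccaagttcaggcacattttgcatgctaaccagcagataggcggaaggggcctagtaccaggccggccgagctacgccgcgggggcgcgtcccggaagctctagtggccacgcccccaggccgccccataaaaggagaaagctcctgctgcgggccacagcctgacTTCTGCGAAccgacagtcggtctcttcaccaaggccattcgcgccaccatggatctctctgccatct

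Immediate early genes, which encode short-lived regulators of the first response to growth factors and stress, were lower on average for all 16 tested, against 47.4% of all genes. None was called, 3 were lower in 5 of 5 lines (18.8%, against 4.81% of all genes), and the median was -0.51. It was -0.22 without line 12, which moved it most, -0.56 without line 13 and -0.68 without line 14. In the fit with all 12 untransduced arrays it was 0.08, where the sign turned. By line the list median was -0.46 and -0.40 in lines 11 and 15 and -1.57, -0.44 and 0.15 in lines 12, 13 and 14, so line 12 was the lowest and line 14 lay above zero. Ier3, a regulator of apoptosis induced by stress, was lower by 0.97 and Fosl2, which also encodes an AP-1 subunit, by 0.96. Fosl2 had 253.7, 234.7, 249.9, 366.5 and 400.2 on GFP arrays and 501.2, 433.7, 772.8, 898.6 and 459.8 on untransduced arrays, without overlap, and a dimmer probe set gave -0.42. Klf4, a zinc-finger factor gene, was lower by 0.76 with line 14 opposite (-0.49 on another probe set). Genes of MAP kinase feedback, among them the inhibitors Spry2 and Spred1 and the ETS factor Etv4, had a median of -0.21 (-0.11 without line 11), 0 of 11 called and 1 lower in 5 of 5 lines (9.09%, against 4.81% of all genes).

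These signalling genes also varied between untransduced cultures. Of 7 untransduced lines without a GFP partner, lines 2, 3 and 20 were wild type, line 26 heterozygous and lines 16, 21 and 24 null. In them Socs3 was at 1394.8, 2873.6 and 3469.4 in lines 2, 3 and 16 and at 363.4, 315.6, 192.5 and 43.7 in lines 20, 21, 24 and 26. The last 4 lie below every GFP array (679.1 to 1160.2). Junb ran from 377.3 to 3191.5 in those 7 lines, against 509.2 to 1116.7 on GFP arrays. A fit of the 5 GFP and all 12 untransduced arrays, with genotype in the model, gave Socs3 a difference of 0.01 (adjusted p 0.997). Those of Adamts1 and Gabra2 were -0.64 and -1.17 (adjusted p 0.583 and 0.111). These differences rest on the heterozygous and null arrays. Wild-type lines 2, 3 and 20 have no GFP array of their genotype and add only to the residual spread. This fit was added after the values were seen, and it called 1 gene, Nudt4 (-0.64, adjusted p 0.0199). Tm4sf1 and Nudt4 were above the highest GFP array in all 7 other untransduced lines, and Gabra2 in 6 of 7, line 16 being at 357.7. Adamts1 was above the highest GFP array in 1 of these 7 lines, line 16 at 1787.7, while lines 2 and 3 (838.9 and 580.8) lay within the GFP range and lines 20, 21, 24 and 26 (260.7, 394.3, 330.6 and 338.3) below it.

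The Olig2 virus gave a second set of cultures from the same 5 lines that had received a virus and blasticidin. Their arrays had 285.7 to 1014.3 for Gabra2, 448.9 to 822.3 for Adamts1, 171.0 to 616.7 for Socs2 and 23.3 to 536.9 for Tm4sf1. The GFP arrays had 314.4 to 700.2, 452.1 to 1060.9, 169.8 to 597.5 and 197.3 to 378.4 for these genes. Nudt4 was at 6508.7 to 8244.7 on Olig2 arrays and 3385.5 to 6648.4 on GFP arrays. Both sets share the same untransduced arrays as their comparison.

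**Figure D3:**
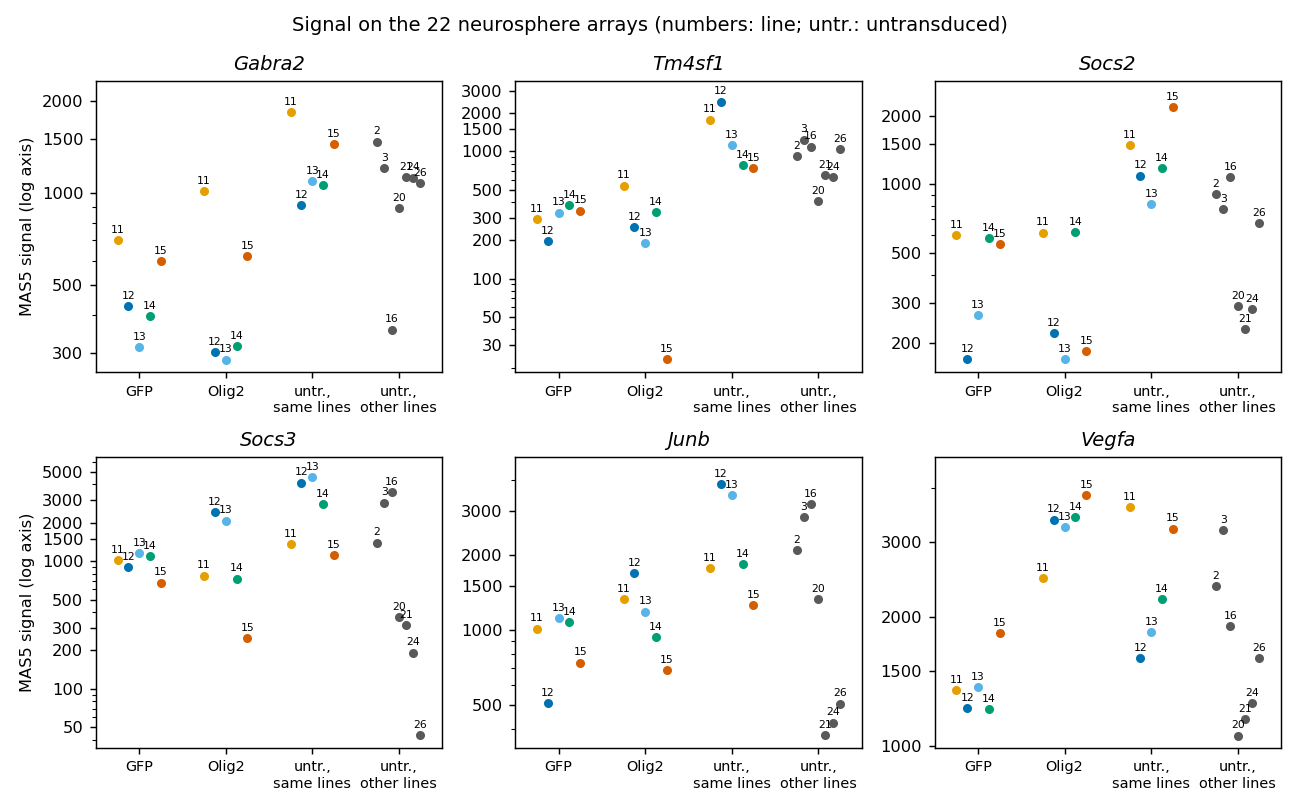
Signal of 6 genes on a log axis on the 22 neurosphere arrays, with the line number above each point. The groups are GFP virus (5), Olig2 virus (5), untransduced of the same lines (5) and other untransduced lines (7). The other untransduced lines include wild-type ones. Tm4sf1 is above the GFP range on all 12 untransduced arrays, while Socs3 is below it in untransduced lines 20, 21, 24 and 26.

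Genes of DNA replication were the list farthest above zero. Of 27 tested, 0 were called, 25 were higher on average (92.6%, against 52.6% of all genes), 6 were higher in 5 of 5 lines (22.2%, against 7.19%), and the median was 0.36. The list median was 0.43 and 0.46 in lines 11 and 15 and 0.53, 0.53 and -0.06 in lines 12, 13 and 14. Mcm5, a subunit of the helicase that unwinds DNA at replication forks, had 4930.7, 4511.7, 4922.1, 4829.1 and 3582.0 on GFP arrays and 2987.2, 3065.3, 3051.8, 2404.1 and 3478.1 on untransduced arrays. All GFP values lay above all untransduced values, and the difference of line 14 was 0.04 (mean 0.60 ± 0.13 SE, adjusted p 0.316). A second bright probe set of Mcm5 differed by 0.30 and was higher in 4 of 5 lines. The uracil glycosylase gene Ung was higher by 0.51, the licensing factor gene Cdt1 by 0.55 (0.23 on another probe set) and Mcm7 by 0.52. Without line 13 the list median was 0.29, the lowest with any line left out. Without line 14, the only line below zero, it was 0.47. Then 18 of 27 members were higher in 4 of 4 lines (66.7%, against 13% of all genes), a count that leaving out the differing line raises by itself.

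Mitosis genes showed the same split between lines. Of 25 tested, 0 were called and 22 were higher on average (88%, against 52.6% of all genes), but 0 were higher in 5 of 5 lines (against 7.19%). The list median was 0.36, 0.37, 0.34 and 0.41 in lines 11, 15, 12 and 13 and -0.31 in line 14. Without line 13 the median was 0.17, against 0.22 with it. Without line 14 the median was 0.33 and 16 of 25 were higher in 4 of 4 lines (64%, against 13% of all genes). Line 14 was the only line below zero, so leaving it out raises that count by itself. The ubiquitin conjugase gene Ube2c, cyclin gene Ccna2 and anaphase activator gene Cdc20 were higher by 0.41, 0.40 and 0.41, and Mki67, the proliferation marker, by 0.35 (adjusted p 0.35 to 0.38). Other bright probe sets gave 0.05 for Ccna2 and 0.20 for Cdc20. Mki67 had 8429.1, 6499.6, 7548.7, 7455.8 and 6672.5 on GFP arrays and 5134.8, 6793.0, 5142.6, 4889.2 and 6867.8 on untransduced arrays. Lines 15 and 14 had about equal values, and the other 3 were higher with GFP.

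Among the 15 G1 cyclins and inhibitors tested, 2 were higher in all lines (13.3%, against 7.19% of all genes) and 1 lower (6.67%, against 4.81%), and the median was 0.05. Rbl1, a retinoblastoma family member, was higher by 0.54 and Cdk4, the G1 kinase, by 0.26, both without overlap between groups, though a dimmer probe set of Rbl1 gave 0.00. Cdkn1b, the inhibitor p27 that restrains CDK2, was lower by 0.35 in 5 of 5 lines, and Cdkn2b, the CDK4 inhibitor p15, by 0.68 in 4 of 5 (adjusted p 0.35 for both). The neighbouring Cdkn2a was at 18.1 to 106.4 on GFP arrays and 92.2 to 146.1 on untransduced arrays, in cultures that lack Ink4a/Arf. Targets of p53 had a median of 0.05, with 0 of 15 called and 0 moving one way in all lines. Among the 4 of smallest p the largest values were -0.58 for Btg2 and 0.30 for Ccng1, and 2 other probe sets of Ccng1 gave -0.06 and 0.01. Gadd45a, also in this list, differed more, by -1.07, but was higher in 2 lines and lower in 3.

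**Figure D4:**
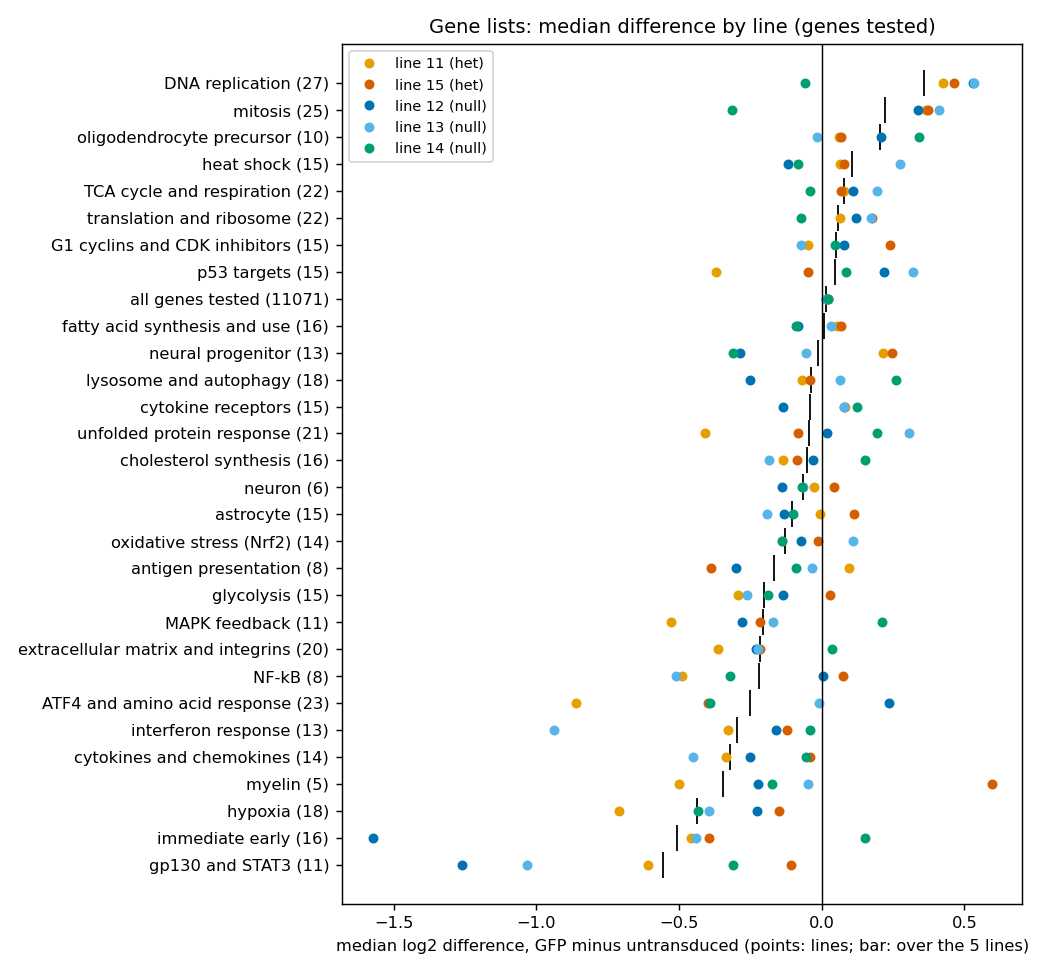
Median log2 difference of each gene list with 5 or more genes tested, by line (points) and of the mean differences (black bars), ordered from high to low, with the number of genes tested in brackets. DNA replication is at 0.36 and the gp130 and STAT3 list at -0.56, against 0.01 for all genes tested.

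Hypoxia genes, which the factor HIF switches on when oxygen is short, were lower on average for 17 of 18 tested (94.4%, against 47.4% of all genes). None was called, 3 were lower in 5 of 5 lines (16.7%, against 4.81%), and the median was -0.44. By line the median was -0.71 and -0.15 in lines 11 and 15 and -0.23, -0.40 and -0.43 in lines 12, 13 and 14. Leaving out line 11 moved the list median most, to -0.24, and without line 13 it was -0.37. Vegfa, the vessel growth factor gene, had 1352.2 and 1835.0 on the GFP arrays of lines 11 and 15 and 1226.9, 1372.1 and 1218.7 on those of lines 12, 13 and 14. On untransduced arrays it had 3616.9, 3217.2, 1604.9, 1847.7 and 2205.3. Each line was lower with GFP, but only the GFP array of line 15 reached the untransduced range, and the mean difference was -0.77 ± 0.15 (SE, adjusted p 0.316). Pdk1, which closes the entry of pyruvate into the citric acid cycle, was lower by 0.67, the oxidase gene Ero1a by 0.92 and the prolyl hydroxylase gene Egln3 by 0.66. On the Olig2 arrays of the same lines Vegfa ran from 2467.1 to 3859.5.

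Glycolysis genes had a median of -0.20 (-0.27 to -0.15 with each line left out in turn), with 12 of 15 lower on average (80%, against 47.4% of all genes). With the Gapdh ratio of each array in the model the median was -0.10, and in the fit with all 12 untransduced arrays -0.09. Of these 15 genes, 3 were lower in 5 of 5 lines (20%, against 4.81%) and 0 were called. The glucose transporter gene Slc2a3 was at 871.5, 1464.7, 863.8, 483.7 and 800.4 on GFP arrays and at 3311.2, 1434.6, 1400.9, 1019.5 and 1564.0 on untransduced arrays. Line 15 was level, and the other 4 were lower with GFP (mean -0.91 ± 0.23 SE, adjusted p 0.316). Pgam1 and Tpi1, both glycolytic enzymes, were lower by 0.39 each and Pfkm by 0.28, in all 5 lines. By contrast the 22 genes of the citric acid cycle and respiration had a median of 0.08, and Tfam, the mitochondrial DNA packaging factor gene, was higher by 0.34 with no overlap, but by 0.04 on a dimmer probe set. Cholesterol synthesis (16 tested), fatty acid genes (16) and lysosome genes (18) had medians of -0.05, 0.01 and -0.04, with Fasn higher by 0.41 in all 5 lines. Hmgcs1 was higher by 0.17 on its brightest probe set and differed by -0.17 to 0.01 on 4 others. Translation and ribosome genes had a median of 0.06, 4 of 22 being higher in all lines (18.2%, against 7.19% of all genes), among them Rpsa (0.27) and Fbl (0.26).

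Stress lists had medians on both sides of zero. Amino acid response genes under ATF4 had a median of -0.25 (-0.11 without line 11, -0.35 without line 13), with 19 of 23 lower on average (82.6%, against 47.4% of all genes). Of these 23 genes, 3 were lower in all lines (13%, against 4.81%) and 0 were called. The lipoprotein receptor gene Vldlr had 1254.7, 1229.1, 702.9, 895.9 and 789.3 on GFP arrays and 3092.4, 2181.4, 986.2, 1088.3 and 1087.9 on untransduced arrays, lower in each line by 0.28 to 1.29. Slc7a11, the cystine importer, was lower by 0.88, Cebpb by 0.52 and the pseudokinase gene Trib3 by 0.56. By line the list median was -0.86 and -0.40 in lines 11 and 15 and 0.24, -0.01 and -0.39 in lines 12, 13 and 14. The unfolded protein response list had a median of -0.04, with Ddit3 at -0.74 and Atf3 at -0.90. Dimmer probe sets gave -0.36 for both Vldlr and Ddit3. Heat shock genes had a median of 0.11. Dnajb1, a co-chaperone of Hsp70, was lower by 0.59 without overlap on its brightest probe set and differed by 0.03 on another. Hspb1 was lower by 0.54, while the mitochondrial chaperone genes Hspd1 and Hspe1 were higher by 0.25 each, in 4 of 5 lines. Of the genes under Nrf2, Hmox1, which degrades haem, was lower by 0.52 in 5 of 5 lines and the list median was -0.13 (-0.02 without line 12).

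Above the filter were 14 of 28 cytokines with a probe set and 13 of 28 interferon response genes, against 11071 of 18193 of all genes. The cytokine list had a median of -0.32 (-0.30 to -0.25 with each line left out in turn), with 12 of 14 lower on average (85.7%, against 47.4% of all genes). Of these 14 genes, 2 were lower in all lines (14.3%, against 4.81%) and 0 were called. Csf1, a growth factor for macrophages, had 524.7, 494.0, 546.4, 561.9 and 611.6 on GFP arrays and 694.4, 769.7, 925.2, 846.8 and 644.0 on untransduced arrays, without overlap and with line 14 close to level (-0.48 ± 0.13 SE, adjusted p 0.35). Tgfb1 was lower by 0.49 and Tgfb2 by 0.44, each in 4 of 5 lines. Cytokine receptors had a median of -0.04, and Il6ra, the interleukin-6 receptor subunit, was higher by 0.82. It had 446.5, 452.1, 420.2, 498.5 and 557.6 on GFP arrays and 75.9, 367.9, 292.9, 389.9 and 355.4 on untransduced arrays. Line 11 carried the largest gap, and its untransduced value was below that array's median of 173.3. A dimmer probe set of Il6ra differed by -0.42, with 2 lines higher and 3 lower.

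Interferon response genes had a median of -0.30, with 10 of 13 lower on average (76.9%, against 47.4% of all genes) and 2 lower in all lines (15.4%, against 4.81%). By line the median was -0.33 and -0.12 in lines 11 and 15 and -0.16, -0.94 and -0.04 in lines 12, 13 and 14. Without line 13, whose GFP array had the deviating RNA, it was -0.16, and without line 11 it was -0.45. Irf1, a transcription factor gene induced by interferon gamma, had 982.2, 747.7, 956.7, 876.4 and 818.1 on GFP arrays and 1261.7, 1422.0, 1416.2, 1800.0 and 1221.5 on untransduced arrays, without overlap (-0.68 ± 0.13 SE, adjusted p 0.316). Stat2, a subunit of the interferon-activated factor, was lower by 0.83, also without overlap. Antigen presentation and NF-kB genes had medians of -0.17 (-0.25 to -0.11 with each line left out in turn) and -0.22 (-0.27 to -0.16). With the Gapdh ratio of each array in the model they were -0.30 and -0.10. The peptide transporter gene Tap2 was lower by 0.59 and Nfkbiz, a nuclear inhibitor family member, by 0.92 (-0.33 on a dimmer probe set). The microglia markers that passed the filter were Csf1r, Cd68 and P2ry12, at -0.65, -0.58 and 0.40, and other probe sets of Csf1r gave -0.19 and 0.33.

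No gene was called higher, the smallest adjusted p of a higher gene being 0.298. Of the 12 named, Sema3f, a secreted semaphorin gene, had 274.6, 1030.8, 1030.3, 1133.1 and 1110.0 on GFP arrays and 164.0, 745.6, 211.3, 283.8 and 155.9 on untransduced arrays. The null lines carried most of the mean of 1.60 ± 0.31 (SE, adjusted p 0.316), and the value rests on 1 probe set marked for cross-hybridisation, the 2 others being dim. The lysosomal peptidase gene Ctsc was higher by 1.06 and the proprotein convertase gene Pcsk5 by 0.89. Anapc13, an anaphase-promoting complex subunit gene, averaged 2905 ± 143 in GFP cultures and 2084 ± 113 in untransduced cultures (SD, n = 5 each), and Ints5, a subunit gene of the Integrator complex, averaged 4392 ± 656 in GFP cultures and 3195 ± 176 in untransduced cultures; neither gene overlapped between groups. Another bright probe set of Ints5 gave 0.33, and a dimmer one -0.58 with 4 of 5 lines lower. Mcm3ap, for mRNA export, and Hnrnpd, which binds AU-rich RNA, were higher by 0.55 and 0.42 without overlap. Tbx18, Cbr3, Alg5 and Ctnnd1 were higher by 0.82, 0.73, 0.46 and 0.47, while other probe sets gave 0.44 for Tbx18 and 0.07 and 0.03 for Ctnnd1. Erdr1 (0.75) belongs to a region of near-identical copies, so its signal is uncertain. Among progenitor genes the receptor gene Notch1 was higher by 0.50 (0.16 on another probe set) and its target Hes1 lower by 0.51, each in 5 of 5 lines.

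Whether the GFP virus acted alike in the 2 genotypes was tested with an interaction term, effect in the 3 null lines minus effect in the 2 heterozygous lines. Limma called 0 of 11071 genes (0%), with 513 at an unadjusted p under 0.05 and a smallest adjusted p of 0.0798. Slc6a11, a GABA transporter gene, had 783.0, 838.7 and 1793.2 on GFP arrays of null lines 12, 13 and 14 against 3624.1, 3681.5 and 4100.6 untransduced, and 3678.4 and 1853.3 on GFP arrays of heterozygous lines 11 and 15 against 582.1 and 612.3 untransduced. It was lower with GFP in each null line and higher in each heterozygous line (-1.83 and 2.10, a difference of -3.93, adjusted p 0.0798). The integrin gene Itga4 had the reverse order, with an effect of 1.53 in null and -1.24 in heterozygous lines (adjusted p 0.0798). The next genes, Agpat4 (1.70), Fndc1 (2.37), Ptprd (1.38), Sema3f (1.71), Prmt1 (-1.21) and Sdc3 (-1.34), had adjusted p of 0.400 to 0.628. Gabra2 differed by -1.40 in null and -1.31 in heterozygous lines (interaction -0.09 ± 0.28 SE, adjusted p 0.998), and Adamts1 by -1.31 in each, with an SE of 0.29 on the interaction. Terms this imprecise do not show that the genotypes respond alike.

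Within the null lines alone limma called 3 genes (0.0271%), Sema3f higher by 2.28 and Socs3 and Zfp36 lower by 1.82 and 1.77 (adjusted p 0.0286, 0.0370 and 0.0429). Zfp36 encodes a protein that destabilises inflammatory mRNAs, and its signal was 1552.1, 2272.9 and 2460.8 on null GFP arrays against 6668.7, 9294.4 and 5605.1 on null untransduced arrays. In the heterozygous lines it was at 3834.5 and 2721.5 with GFP and at 4147.5 and 3737.6 untransduced. The effect in the heterozygous lines had 0 calls and 632 genes at an unadjusted p under 0.05. That these 3 genes passed in one genotype does not show a difference, as their interaction terms had adjusted p of 0.628, 0.772 and 0.628.

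Chromosome 15 (435 genes tested) stood apart in 4 of the 5 lines. Its median difference was -0.10 and 0.15 in lines 11 and 15 and 0.36, 0.03 and -0.33 in lines 12, 13 and 14, while the other chromosomes lay between -0.07 and 0.11 over all lines. In line 13 it lay within the range of the others. In line 12, 77% of its genes were higher on the GFP array, against 51.9% of all genes, and in line 14 it was 18.9% against 52.2%. Copy number was not measured. Myo10 and Gpaa1, on this chromosome, had interaction terms of -1.55 (adjusted p 0.153) and -2.21 (adjusted p 0.628). With this chromosome left out, or its level removed, the same 2 genes were called.

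**Figure D5:**
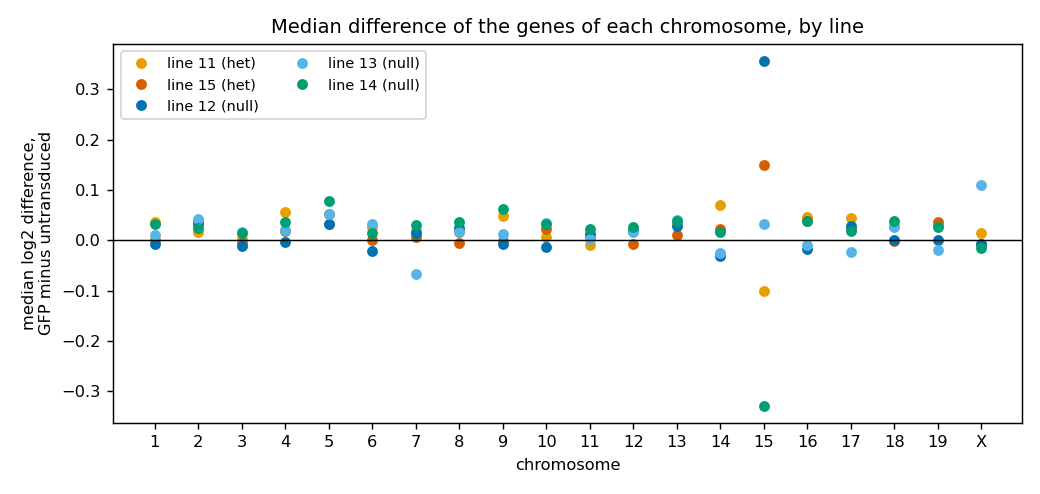
Median log2 difference, GFP minus untransduced, of the tested genes of each chromosome, by line. Chromosome 15 runs from -0.33 in line 14 to 0.36 in line 12, and the other chromosomes stay between -0.07 and 0.11.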

How the data were processed

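RNA of 30 mouse samples had been hybridised to Affymetrix mouse arrays; 10 were compared here. The deposited value table holds intensity signals on a linear scale, computed with MAS5 per the submitters' processing notes (version not given in the sources used here) and scaled by the authors so that the trimmed mean of each array is about 500. All arrays carry one hybridisation day, so the labels give no batch. The number of arrays limits the precision.

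From these values, log2(signal + 16) was computed. Of 45101 probe sets, 34945 named 1 gene, 932 several and 9160 none, besides 64 controls. Each of 18193 genes was read from its brightest probe set, by mean log2 signal on the 30 arrays, and 11071 with a signal at or above the array's median on at least 5 of the 10 arrays were tested. RefSeq (GRCm38.p6) gave chromosomes and promoters. Limma 3.58.1 in R 4.3.3 fitted the virus with line as a block (eBayes with a trend, two-sided, Benjamini-Hochberg; called at adjusted p under 0.05), and an interaction with genotype. The fit was tested on simulated data. Lines link the arrays because, by the numbers in the titles, a GFP array and its untransduced array come from one culture line. Deviations of the 2 arrays of a line from their group means correlated between -0.15 and -0.03 over all genes tested. These means are of 2 or 3 arrays, and the correlations show no shared line signal. Xist was nonetheless high on both arrays of line 15 and on no other of the 10. The GFP array of line 11 correlated at 0.949 with its own line and 0.962 with line 15. For line 14 it was 0.954, against 0.960 to 0.963 with the other null lines. Line 15 went the other way (0.961 against 0.950), and lines 12 and 13 lay between the other null lines. Named genes were the called genes and, to fill 12 in each direction, those of smallest p that moved one way in all 5 lines, then 5 per direction for the interaction and up to 4 per list. The 32 lists hold 609 memberships, 571 with a probe set and 454 tested. The members and lists were chosen with earlier results of these data known. Alternatives were other pseudocounts, filters, scalings, probe sets, weights, no block, a random block, a Gapdh covariate, 15 arrays, other thresholds and each line left out.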

Additional observations from a re-analysis of the deposited data

Results flagged for a closer look

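Values of 5 arrays or 5 lines were checked for one that lies far from the rest. Of 67 such groups 7 had one, and chance gives about 1 in 20. Line 13 had 3 of them, an absorbance ratio of 2.83 on its GFP array and of 1.94 on its untransduced array, and a Gapdh 3'/5' log2 ratio of -0.134 on its untransduced array, the highest of the untransduced 5. Nudt4 differed by -1.17 in line 12, farther below zero than in the other 4 lines. Line 14 lay apart for 2 gene lists, with a median difference of -0.0595 for DNA replication and -0.314 for mitosis, where the other 4 lines were above zero. Line 12 lay apart for cytokine receptors, with a median of -0.136. The reasons were not tested.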

How the results depend on the processing

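The count of 2 calls was 4 with a pseudocount of 64, with array weights and with the filter on all 10 arrays, 5 at an adjusted p under 0.10, 1 with the 15 arrays that include the Olig2 virus, and 0 without a trend or with the Gapdh ratio as a covariate. Leaving out 1 line at a time gave 0 to 2 calls. Of alternatives added after the data were seen, all 12 untransduced arrays gave 1 call and the removal of lines 13 and 14 gave 0. Without the replicate block 2 genes were called, Gabra2 and Cebpd, so Adamts1 lost its call and Cebpd gained one (adjusted p 0.0145); the random block called the same pair. No other call of the 24 named genes changed with that block. Over 25 settings Gabra2 ran from -1.44 to -1.17 and Adamts1 from -1.48 to -0.64, both below zero throughout. In the fit with all 12 untransduced arrays, whose differences rest on the heterozygous and null ones, Socs3 changed sign (0.0102). The immediate early median also did (0.0757, against -0.508), and the gp130 and STAT3 median was -0.193, against -0.558. With the filter on all 10 arrays the gp130 and STAT3 median was -1.12. Over 25 settings the DNA replication median ran from 0.248 to 0.475, that of hypoxia from -0.534 to -0.241 and that of interferon genes from -0.499 to -0.148. Sema3f and Pcsk5 gave no value under 2 settings and 1 setting that left out their probe sets. The interaction had 1 call, Slc6a11, with 15 arrays, with 75th percentile scaling and with the filter on all 10 arrays, and 0 under its other settings. Cause was not tested. Dim signals, near or below the array median, limit what is said of cytokine, interferon and microglia genes.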
